A study of Mus musculus with 12 samples.

Results

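Long CDR3 productive rearrangements were examined across all 12 TCRβ libraries. A rearrangement was counted as long when it was in frame without a stop codon and its CDR3 measured 48 nucleotides or more, which is 16 codons or more. They numbered 26111 of the 205925 productive rearrangements, summed over libraries, and made up 25330 distinct nucleotide sequences and 22837 distinct CDR3 amino acid (AA) sequences. The libraries came from 3 independent experiments, named A, B and C, each with 1 library of CD27lo CX3CR1- splenic CD8+ T cells, of CD27hi CX3CR1- splenic CD8+ T cells, of CX3CR1+ splenic CD8+ T cells and of CD8 TILs. Every group came from female C57BL/6 mice, young adults at implantation, bearing subcutaneous MC38 tumors (a mouse colon adenocarcinoma line) and given anti-CTLA-4 Ab and anti-PD-L1 Ab, with cells taken about 2 weeks after therapy began. No untreated or tumor-free group entered the comparison, and the cells of an experiment were pooled from several mice, so that the replicate is the experiment and not the animal. The splenic subsets were flow-sorted, whereas TILs were isolated by CD8a selection without a sort. The labels call the subsets CX3CR1lo and CX3CR1hi. The templates are rearranged genes counted in genomic DNA, so no marker of the labelled cell types could be read from them.

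The CDR3 is the stretch where the V, D and J segments of the TCRβ gene meet, and its loop lies over the peptide that the receptor reads. Its length is set by how much of each segment survives trimming and by how many N nucleotides terminal deoxynucleotidyl transferase adds at the V-D and D-J junctions. A long CDR3 therefore tends to hold many added bases, and the same sequence is less likely to arise in separate animals.

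The following CDR3s are the largest long rearrangement of each CX3CR1+ and TIL library, the second of the TILs in experiment C, and the long rearrangement found in all 3 experiments with the most templates. They are given 5′ to 3′ on the coding strand from the conserved cysteine codon, with the N nucleotides in capitals, and the last of the CDR3's codons (3 bases) lies beyond the 87 bases that the files hold.
CX3CR1+ A, TCRBV03-01 with TCRBJ02-01: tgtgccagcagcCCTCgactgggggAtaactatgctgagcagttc
CX3CR1+ B, TCRBV16-01 with TCRBJ02-03: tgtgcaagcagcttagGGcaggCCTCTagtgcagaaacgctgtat
CX3CR1+ C, TCRBV13-02 with TCRBJ02-04: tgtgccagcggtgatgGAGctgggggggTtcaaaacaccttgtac
CD8 TILs A, TCRBV03-01 with TCRBJ01-06: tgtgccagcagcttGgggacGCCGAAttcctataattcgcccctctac
CD8 TILs B, TCRBV16-01 with TCRBJ02-05: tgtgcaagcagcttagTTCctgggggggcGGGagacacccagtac
CD8 TILs C, TCRBV23-01 with TCRBJ02-02: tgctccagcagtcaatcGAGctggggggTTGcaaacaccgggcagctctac
CD8 TILs C, second, TCRBV04-01 with TCRBJ02-05: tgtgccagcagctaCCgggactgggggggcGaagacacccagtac
All 3 experiments, TCRBV13-02 with TCRBJ02-02: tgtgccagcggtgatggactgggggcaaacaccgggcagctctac
The CDR3s of the expanded cells carried from 3 to 7 N nucleotides, and the one found in all 3 experiments carried 0. A run of G bases from the D segment stands in most of them. The genes join within the TCRβ locus on chromosome 6. In GRCm38.p6, the assembly of mm10, Trbv3 (TCRBV03-01) lies at chr6:41048394-41048824 and Trbj2-1 (TCRBJ02-01) at chr6:41542754-41542803, so that the first of these CDR3s spans the join of a V exon with a J segment and has no single place in the germline genome.

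Productive templates per library ranged from 5893 in the TILs of experiment A to 113660 in CX3CR1+ T cells of experiment C, and 3 templates, taken as the detection limit, correspond to between 0.00264% and 0.0509% of a library. Each library held between 158 and 7041 long rearrangements. All Wilson 95% intervals and detection limits given here cover counting error alone.

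Among unique rearrangements, long CDR3s held a similar share in every library, from 10.2% to 13.2%. They made up 12.8%, 13.2% and 13.1% of the unique productive rearrangements of CD27lo CX3CR1- cells in experiments A, B and C (mean 13.0% ± 0.177, SD, n = 3). In CD27hi CX3CR1- cells the shares were 12.3%, 12.7% and 12.9% (12.6% ± 0.313). In CX3CR1+ cells they were 12.7%, 12.0% and 12.5% (12.4% ± 0.359), and in TILs 11.8%, 10.2% and 12.4% (11.4% ± 1.13). The 2 lowest shares were those of the TILs in experiments B and A, and the 3 shares of CD27lo CX3CR1- cells lay above all those of CX3CR1+ cells and TILs, while CD27hi CX3CR1- cells overlapped each other group.

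The mean of CX3CR1+ cells and TILs was 0.89 percentage points below that of the CX3CR1- subsets (-0.890 ± 0.829, lower in 3 of 3 experiments, exact permutation within experiments, two-sided p = 0.0278). The call was lost with the boundary at 45 nucleotides (-0.137, p = 0.556, exact permutation) or 51 (-0.162, p = 0.194), and with libraries drawn to equal depth (-0.793, p = 0.0833). Counted as distinct CDR3 AA sequences the difference was larger (-1.43, exact permutation p = 0.00926, the smallest possible). With 1 experiment left out, which leaves 2, p cannot fall below 0.0556. The direction of this difference turned with the lowest copy number kept. Among rearrangements with 2 or more templates, the long share was 8.87% ± 0.123 in CD27lo CX3CR1- and 6.76% ± 0.0723 in CD27hi CX3CR1- cells, against 10.1% ± 0.331 in CX3CR1+ cells and 9.52% ± 1.41 in TILs (SD, n = 3), so that CX3CR1+ cells and TILs were 1.98 percentage points higher (exact permutation p = 0.0185). Among rearrangements seen in 1 template it was 14.9% ± 0.269, 14.6% ± 0.588, 14.3% ± 0.366 and 13.0% ± 1.49 in the same order. For CX3CR1+ cells alone the difference was -0.398 ± 0.549 percentage points (lower in 2 of 3 experiments, exact permutation p = 0.222).

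Long rearrangements were seen in 1 template more often than shorter ones in 12 of 12 libraries. Single templates made up 86.4% ± 0.649 of long rearrangements in CD27hi CX3CR1- cells against 73.0% ± 1.92 of shorter ones (SD, n = 3). In CX3CR1+ cells these shares were 64.4% ± 0.651 and 54.9% ± 0.519. No test was made of this difference.

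Weighted by templates, long CDR3s took a steady share of the CX3CR1- libraries and a variable share of the others. They held 11.6%, 11.8% and 11.6% of productive templates in CD27lo CX3CR1- cells (11.6% ± 0.106) and 11.1%, 11.3% and 11.3% in CD27hi CX3CR1- cells (11.2% ± 0.135). In CX3CR1+ cells they held 15.4%, 4.89% and 7.03% (9.12% ± 5.58), and in TILs 7.38%, 3.71% and 7.09% (6.06% ± 2.04). The 3 TIL libraries, CX3CR1+ B and CX3CR1+ C lay below all 6 CX3CR1- libraries, and CX3CR1+ A lay above them.

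**Figure D1:**
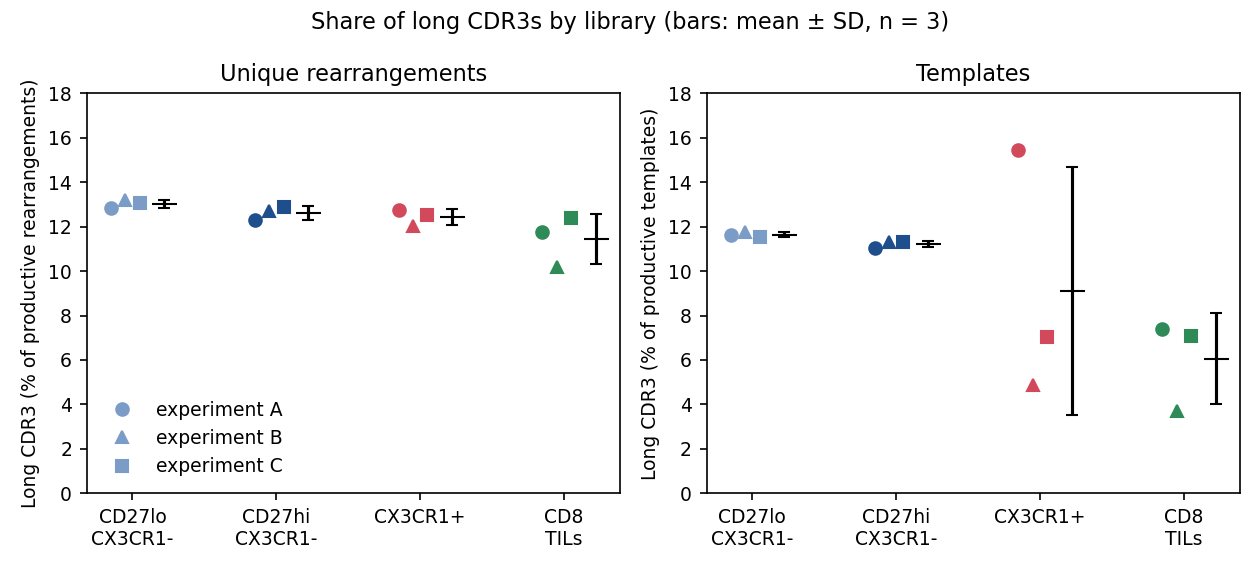
Percent of unique productive rearrangements (left) and of productive templates (right) with a long CDR3, with 1 point per library and the mean ± SD of the 3 experiments as a bar. Unique shares sit between 10.2% and 13.2%, whereas template shares of CX3CR1+ cells run from 4.89% to 15.4%.

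The mean of CX3CR1+ cells and TILs was below that of the CX3CR1- subsets by -3.84 ± 3.68 percentage points of templates (lower in 2 of 3 experiments, exact permutation p = 0.0556). CX3CR1+ cells alone differed from the CX3CR1- subsets by -2.31 ± 5.67 percentage points (p = 0.296, exact permutation, where 0.0370 is the smallest p possible). Single experiments moved both values strongly. Without experiment A, B or C the first was -5.80, -2.15 or -3.58, and the second -5.52, -0.149 or -1.27 percentage points. With a minimum of 2 templates the first was -0.400 (exact permutation p = 0.861), and with a boundary of 45 nucleotides -0.464 (p = 0.917). In CX3CR1+ A the largest long rearrangement held 27.4% of the long templates, and without the largest long rearrangement of each library the long share of CX3CR1+ A was 11.7%. With that change, chosen after the data were seen, the difference for CX3CR1+ cells and TILs was -4.97 ± 2.79 percentage points in 3 of 3 experiments (exact permutation p = 0.0278). The change takes out long templates only, so that every long share had to fall, and most where a single clone was large. The share fell from 7.09% to 5.81% in TILs C but from 11.62% to 11.55% in CD27lo CX3CR1- A. The larger difference is thus in part built in, and nothing is drawn from its p. In pairs of groups, for which 0.25 is the smallest p of the exact sign-flip test, TILs differed from CD27lo CX3CR1- cells by -5.59 ± 2.14 and from CD27hi CX3CR1- cells by -5.15 ± 2.12 percentage points, lower in 3 of 3 experiments (p = 0.25 for each, 6 pairs compared, not adjusted).

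Length fell off steeply past the boundary. CDR3s of 45 nucleotides, just outside the definition, made up 22.8% of unique rearrangements on average over the 12 libraries, and those of 48 nucleotides, just inside it, 9.26%. CDR3s of 51, 54 and 57 nucleotides made up 2.50%, 0.531% and 0.0834%. Of the 26111 long rearrangements, 6507 measured 51 nucleotides or more, 221 measured 57 or more and 46 measured 60 or more. The longest CDR3 had 78 nucleotides with 44 of them N nucleotides, and was seen in 1 template, in a CD27lo CX3CR1- library. By templates, the 48-nucleotide class held 13.3% of CX3CR1+ A but 3.47% and 5.62% of CX3CR1+ B and C, and between 2.86% and 4.83% of the TIL libraries.

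**Figure D2:**
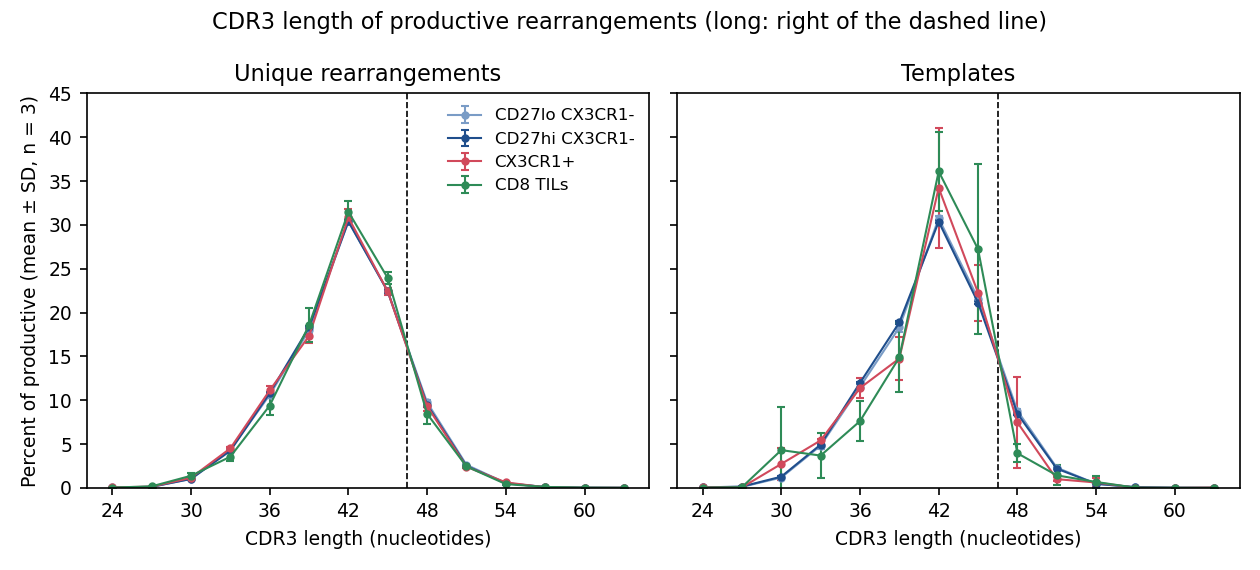
CDR3 length in nucleotides against percent of unique productive rearrangements (left) and of productive templates (right), as mean ± SD over 3 experiments for each group, with long CDR3s to the right of the dashed line. The 4 groups overlie each other by unique rearrangements, and the 48-nucleotide class of templates spreads widely in CX3CR1+ cells.

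Out-of-frame rearrangements make no receptor chain and so give a view of length before the chain is tested. Of these, 11.1% (9.66% to 12.6% over libraries) measured 49 nucleotides or more, the first out-of-frame length past 48, compared with 12.4% of productive rearrangements at 48 or more. The difference was -1.25 ± 0.893 percentage points (SD, n = 12 libraries, lower in 11 of 12, exact sign-flip permutation p = 0.00146). The 12 libraries come from 3 experiments and 4 groups, so that p-values over libraries treat as separate what partly shares its mice. Because in-frame and out-of-frame lengths never coincide, the value turns on where the bracket is set. With 46 nucleotides or more the out-of-frame share was 29.0%, which was 16.6 percentage points higher than the productive share. With 49 nucleotides, but counted by templates, it was 0.921 points higher (exact sign-flip permutation p = 0.204).

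V and J use differed between long and shorter CDR3s. Bases of the V, D and J segments count toward the CDR3, so that this contrast follows in part from the definition of length and is given as a description. Of 33 genes tested (21 V and 12 J genes with at least 0.5% of productive rearrangements), 29 (87.9% of those tested) differed in their share (exact sign-flip permutation over 12 libraries, Benjamini-Hochberg adjusted p below 0.05), 15 higher and 14 lower among long CDR3s. With the 3 experiments as the unit, 0 of 33 could pass, since 0.25 is then the smallest p.

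J genes moved the most. TCRBJ02-03 made up 16.8% of long and 6.56% of shorter rearrangements on average, a difference of 10.3 ± 1.75 percentage points, higher in 12 of 12 libraries. TCRBJ02-02 made up 12.4% and 4.63% (difference 7.77 ± 2.46) and TCRBJ02-04 11.8% and 6.42% (5.34 ± 0.824), both higher in 12 of 12 libraries. The opposite was seen for TCRBJ02-07, the J gene used most by shorter CDR3s, which made up 6.95% of long and 23.7% of shorter rearrangements (-16.7 ± 1.88, lower in 12 of 12). TCRBJ01-01 made up 2.13% and 10.5% (-8.36 ± 1.02), and TCRBJ01-02 2.11% and 7.25% (-5.15 ± 1.10). The adjusted p of these 6 genes was 0.000895 each, from the smallest p that the exact sign-flip permutation allows (0.000488). Together, genes of the J2 cluster made up 75.4% ± 2.33 of long and 64.4% ± 1.04 of shorter rearrangements (SD, n = 12).

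Read the other way, 27.6% ± 5.19 of TCRBJ02-02 rearrangements were long, which was the highest share of the genes tested, and 2.84% ± 1.00 of TCRBJ01-01 rearrangements, the lowest. In GRCm38.p6 the J segments of the 12 genes tested run from 47 bases for Trbj2-7 (chr6:41543810-41543856), of whose rearrangements 3.97% were long, to 53 bases for Trbj1-6 (chr6:41535554-41535606), with 18.3%. The order did not follow segment length alone. Trbj2-3, Trbj2-4 and Trbj2-5 all measure 49 bases, and 26.7%, 20.6% and 14.2% of their rearrangements were long. Long CDR3s with TCRBJ01-06 held 4.82 N nucleotides on average and those with TCRBJ02-07 held 6.72.

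Of the V genes, TCRBV02-01 made up 7.52% of long and 3.01% of shorter rearrangements (4.51 ± 1.14, higher in 12 of 12 libraries), and 26.0% of its rearrangements were long. TCRBV05-01 made up 8.37% and 4.83% (3.54 ± 1.43, higher in 12 of 12). Lower shares were seen for TCRBV19-01, with 5.55% of long and 8.56% of shorter rearrangements (-3.02 ± 1.19, lower in 12 of 12), and for TCRBV29-01, with 3.83% and 6.30% (-2.47 ± 0.704, lower in 12 of 12). The adjusted p was 0.000895 for each of these 4 genes (exact sign-flip permutation). TCRBV03-01, which the largest long rearrangement used, made up 6.73% of long and 6.84% of shorter rearrangements and did not pass (adjusted p = 0.767, exact sign-flip permutation).

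**Figure D3:**
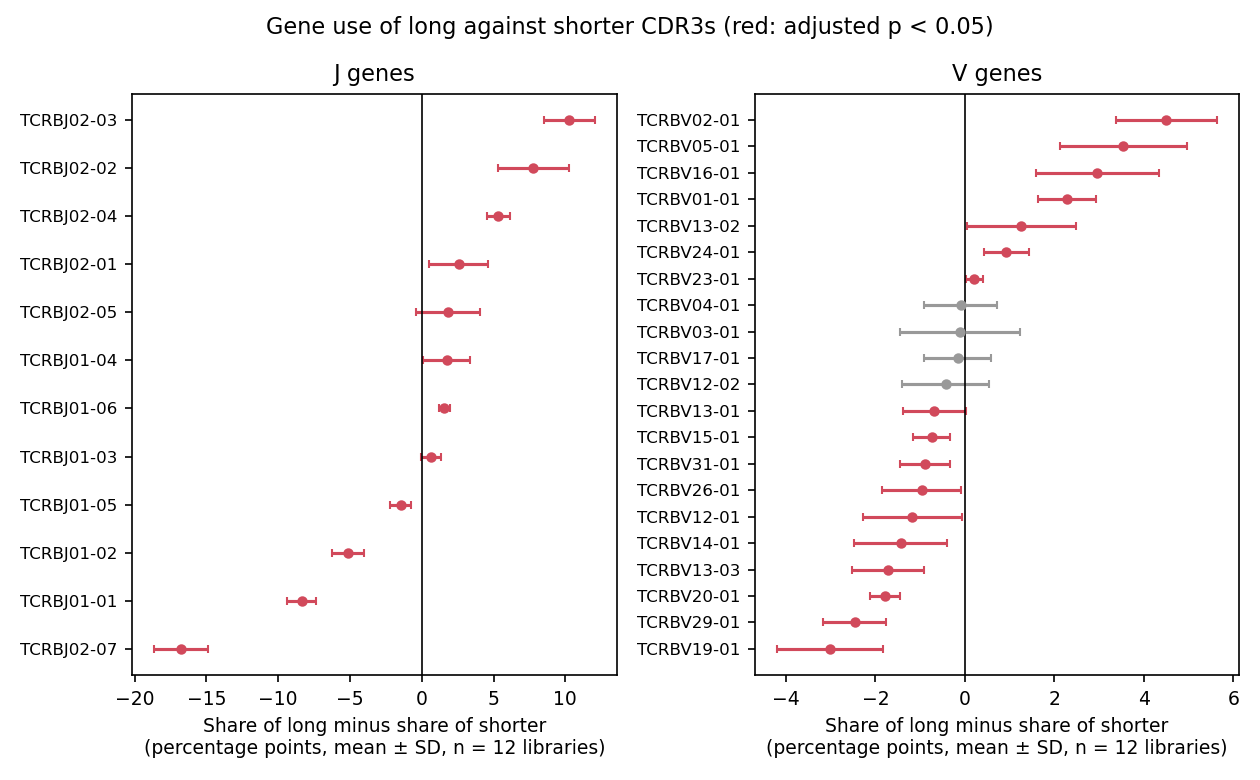
Share of long minus share of shorter unique productive rearrangements for 12 J genes (left) and 21 V genes (right), in percentage points, as mean ± SD over 12 libraries, with genes of adjusted p below 0.05 in red. The largest rise is that of TCRBJ02-03 (10.3) and the largest fall that of TCRBJ02-07 (-16.7).

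Within the long CDR3s, gene use was not told apart between groups. Of the 33 genes, 0 (0% of those tested) passed in the comparison of CX3CR1+ cells and TILs with the CX3CR1- subsets (exact permutation within experiments with Benjamini-Hochberg adjustment, smallest adjusted p = 0.373), and 1 had an unadjusted p below 0.05. This was TCRBJ02-07, at 6.03% ± 1.04 of long rearrangements in CD27lo CX3CR1-, 6.58% ± 0.226 in CD27hi CX3CR1-, 7.12% ± 0.571 in CX3CR1+ cells and 8.06% ± 1.85 in TILs (SD, n = 3, exact permutation p = 0.0463). TCRBJ02-03 made up 18.7% ± 0.423, 17.2% ± 0.581, 14.5% ± 1.33 and 17.0% ± 2.60 in the same order. The smallest p of this exact permutation is 0.00926, so that after adjustment over 33 genes fewer than 7 could not pass, and 0 does not show equal use. Among long rearrangements with 2 or more templates, however, 7 of the 33 genes passed, all of them J genes and each at that smallest p. TCRBJ02-07 was -11.0 and TCRBJ02-04 6.82 percentage points in CX3CR1+ cells and TILs relative to the CX3CR1- subsets (adjusted p = 0.0437 for each, exact permutation). Without that minimum TCRBJ02-07 was 1.29 points higher, so that its direction turned with copy number. Gene use of shorter rearrangements was not compared between groups, so this turn is not shown to belong to long CDR3s. Templates weighted single clones heavily, and TCRBV03-01 held 37.9% of the long templates of CX3CR1+ A but 6.70% of its long unique rearrangements.

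Long CDR3s held more N nucleotides and had lost fewer bases of their segments. Both add to length directly, and these values are given without a test. The mean number of N nucleotides was 5.45 in long and 3.19 in shorter rearrangements, a difference of 2.26 ± 0.121 (SD, n = 12 libraries). The additions were spread over both junctions, with 2.76 against 1.69 at the V-D and 2.69 against 1.54 at the D-J junction where a D segment was found. Rearrangements without any N nucleotide made up 0.682% of long and 10.5% of shorter ones. The J segment had lost 1.50 bases in long and 3.02 in shorter CDR3s, the V segment 1.88 and 2.77, and the D segment, both ends together, 4.11 and 5.70. Of the D segments that could be named, TCRBD01-01 was 37.7% in long and 59.6% in shorter CDR3s, and the rest was TCRBD02-01. The germline Trbd1 measures 12 bases and Trbd2 14 bases.

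The number of N nucleotides in long CDR3s overlapped between all 4 groups. It was 5.46 ± 0.0650 in CD27lo CX3CR1-, 5.43 ± 0.0473 in CD27hi CX3CR1-, 5.46 ± 0.0517 in CX3CR1+ cells and 5.47 ± 0.240 in TILs (SD, n = 3). CX3CR1+ cells and TILs differed from the CX3CR1- subsets by 0.0220 ± 0.110 N nucleotides, higher in 2 of 3 experiments (exact permutation p = 0.713).

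The long CDR3s were also richer in glycine, the residue that D segments encode in most reading frames. Glycine made up 12.8% of residues in long and 9.94% in shorter CDR3s, a difference of 2.89 ± 0.473 percentage points, higher in 12 of 12 libraries (exact sign-flip permutation p = 0.000488, the smallest possible). As long CDR3s also kept more of the D segment, this measure is not free of length. Net charge, counted as lysine and arginine minus aspartate and glutamate, was -0.765 in long and -0.748 in shorter CDR3s (difference -0.0163 ± 0.0503, lower in 7 of 12 libraries, exact sign-flip permutation p = 0.285). The difference passed in the opposite direction with a boundary of 45 nucleotides (0.0307, higher in 10 of 12 libraries, exact sign-flip permutation p = 0.00195) and with a minimum of 2 templates (0.0702, higher in 9 of 12, p = 0.0298). A cysteine past the first position occurred in 7.22% of long and 4.98% of shorter CDR3s, and per 100 residues its number was 0.473 ± 0.0462 in long and 0.396 ± 0.0388 in shorter ones (SD, n = 12, higher in 11 of 12 libraries, not tested).

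Long CDR3s were shared between experiments less often than shorter ones. In a library, between 8.68% and 13.6% of the long CDR3 AA sequences were found in a library of another experiment, compared with 28.5% to 41.8% of the shorter ones. The ranges did not overlap, and the difference was -25.4 ± 3.49 percentage points, lower in 12 of 12 libraries (exact sign-flip permutation p = 0.000488). With every library drawn down to 5893 templates it was -16.8 points. By group, the long shares were 11.6% ± 1.29 in CD27lo CX3CR1-, 10.4% ± 1.33 in CD27hi CX3CR1-, 11.6% ± 1.33 in CX3CR1+ cells and 11.4% ± 2.51 in TILs (SD, n = 3), with all 4 ranges overlapping.

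Over all libraries, 1055 of the 22837 long CDR3 AA sequences (4.62%) were found in 2 or 3 experiments and 186 in all 3, compared with 15.1% of 116873 shorter ones in 2 or 3. Sharing fell with each step of length, from 10.2% at 45 nucleotides to 5.84% at 48, 1.60% at 51 and 0.283% at 54. None of the 172 AA sequences of 57 nucleotides was shared, which allows a share of up to 1.74% (3 of 172). Shared long CDR3s lay near the boundary, and 94.1%, 93.7% and 94.4% of those in experiments A, B and C measured 48 nucleotides, against 72.0%, 72.1% and 73.0% of the unshared ones. They held 3.60, 3.59 and 3.63 N nucleotides against 5.74, 5.69 and 5.69.

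**Figure D4:**
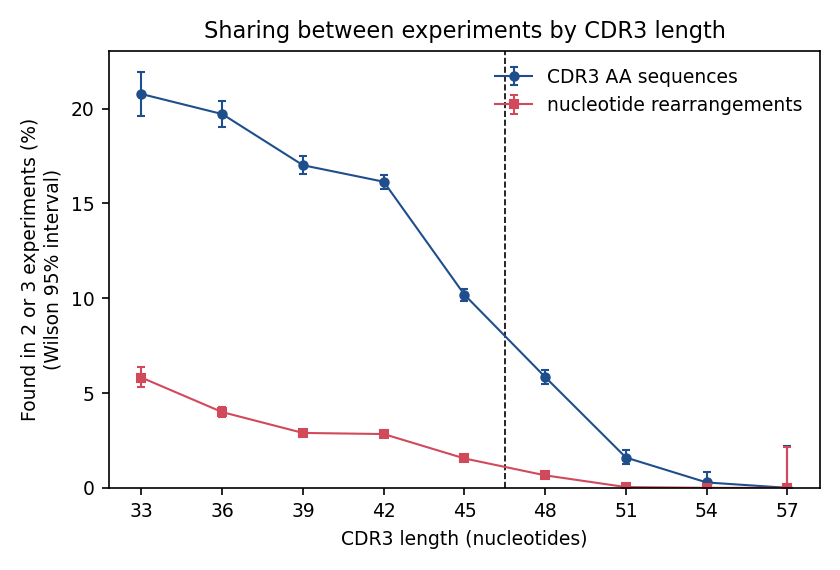
CDR3 length in nucleotides against the percent of distinct CDR3 AA sequences (circles) and nucleotide rearrangements (squares) found in 2 or 3 experiments, with Wilson 95% intervals. The AA share falls from 10.2% at 45 nucleotides to 5.84% at 48 and 1.60% at 51.

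As nucleotide sequences, 127 of 25330 long rearrangements (0.501%) were found in 2 or 3 experiments, compared with 2.84% of shorter ones, and 3 were found in all 3. The one with TCRBV13-02 and TCRBJ02-02, printed above, held 0 N nucleotides and was found with 3, 4 and 2 templates in CD27hi CX3CR1- cells of A, B and C, respectively. The others paired TCRBV14-01 with TCRBJ02-01 (4 N nucleotides, 4 templates in all) and TCRBV01-01 with TCRBJ02-03 (3 N nucleotides, 3 templates in all). All 3 measured 48 nucleotides, and none was expanded.

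Expansion was defined as 0.1% or more of the productive templates of a library. That was at least 56, 51 and 114 templates in CX3CR1+ A, B and C, but 6, 13 and 21 in the TILs of A, B and C, where counting error weighs more. Long CDR3s were found among the expanded rearrangements of every CX3CR1+ and TIL library but less often than among the rest. They were 18 of 143, 7 of 126 and 10 of 144 expanded rearrangements in CX3CR1+ A, B and C, and 13 of 115, 6 of 128 and 12 of 131 in the TILs of A, B and C. Of the expanded rearrangements 12.6%, 5.56% and 6.94% were thus long in CX3CR1+ cells, against 12.7%, 12.2% and 12.6% of the others. In TILs these shares were 11.3%, 4.69% and 9.16% against 11.8%, 10.7% and 12.6%. The difference was -3.73 ± 2.85 percentage points, lower in 6 of 6 libraries (exact sign-flip permutation p = 0.0312, the smallest possible for 6 libraries). The CX3CR1+ and TIL libraries of an experiment share mice and clones, so that the 6 differences are not fully independent. With the 3 experiments as the unit, which was not run, 0.25 would be the smallest p. Both libraries of experiment A showed the smallest differences (-0.152 in CX3CR1+ cells and -0.512 in TILs). The call was lost with a minimum of 2 templates (-1.33, p = 0.219, exact sign-flip permutation), at equal depth (-2.89, p = 0.0938), and with boundaries of 45 (-2.29, p = 0.0625) or 51 nucleotides (-0.309, p = 0.781). The CX3CR1- libraries held 18 expanded rearrangements in all, of which 0 were long, against 12.3% to 13.2% of their other rearrangements. At that share few of 18 would be long, and no test was made of this count.

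The 66 expanded long rearrangements, counted per library, measured 48 nucleotides in 45 cases, 51 in 14 and 54 or more in 7, and 55 of them used a J2 gene. Of all 26111 long rearrangements, 6507 measured 51 or more and 1322 measured 54 or more, and 75.4% on average used a J2 gene. The 8 that were expanded in both TILs and CX3CR1+ cells are counted in each, and no test was made of these counts. In CX3CR1+ A the expanded long rearrangements held 71.6% of the long templates, in CX3CR1+ B 29.7% and in CX3CR1+ C 39.2%, while in TILs they held 50.3%, 39.8% and 64.6%. Expanded rearrangements held 59.8%, 67.3% and 60.9% of the templates of shorter CDR3s in CX3CR1+ cells and 69.0%, 79.3% and 77.5% in TILs. Long templates were thus less concentrated in expanded rearrangements than shorter ones in 5 of the 6 libraries, with CX3CR1+ A the exception.

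In CX3CR1+ A the most abundant of all productive rearrangements was long. It is the printed TCRBV03-01 and TCRBJ02-01 rearrangement, with 2356 templates or 4.22% (Wilson 95% interval 4.06% to 4.39%). In the same experiment it was found with 1 template in CD27lo CX3CR1- and 11 templates in CD27hi CX3CR1- cells. In TILs, the shallowest library, it had 0 of 5893 templates, which allows a share of up to 0.0509%. It was chosen for its size in CX3CR1+ cells, so that no fold between the groups is given. The next in CX3CR1+ A, with TCRBV17-01 and TCRBJ02-02, held 759 templates (1.36%), and the one after it, with TCRBV05-01 and TCRBJ01-04, held 746 (1.34%). These were not found in the TILs either.

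The same CDR3 bases as those of the TCRBV03-01 rearrangement recurred in 15 other rearrangements of CX3CR1+ A, 13 of them named with another V gene, with 21 templates in all and none in the other experiments. In the 6 CX3CR1+ and TIL libraries, between 4 and 274 rearrangements carried the CDR3 bases of one with at least 50 times their templates, and between 0 and 29 of them were long, while the CX3CR1- libraries held 0. Leaving these out, a choice made after the data were seen, moved the difference in unique long share from -0.890 to -0.814 percentage points (exact permutation p = 0.0278). The 0 of the CX3CR1- libraries is no contrast between groups. The rule needs a larger rearrangement of at least 50 templates, and clones of that size were rare in those libraries.

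In CX3CR1+ B and C no long rearrangement was near the top, and the largest ranked 46th and 26th among productive rearrangements. The TCRBV16-01 rearrangement held 166 templates (0.326%) of CX3CR1+ B and was not found in the TILs. The third of CX3CR1+ B, with TCRBV01-01 and TCRBJ02-07, held 132 templates (0.259%) and 22 templates (0.178%) of the TILs. The TCRBV13-02 rearrangement of CX3CR1+ C held 631 templates (0.555%), and 12 templates (0.0573%) in the TILs. Of the 9 largest long rearrangements of CX3CR1+ cells, 4 were found in the TILs of their experiment, which were the third of B and all 3 of C. The second of C was found there with 2 templates, below the limit of 3.

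In TILs the largest long rearrangements ranked 17th, 35th and 14th in experiments A, B and C. The TCRBV23-01 rearrangement of TILs C, of 54 nucleotides, held 285 templates or 1.36% (1.21% to 1.53%) of the TILs and 31 templates (0.0273%) of CX3CR1+ cells, and was in no CX3CR1- library. The second of TILs C held 282 templates (1.35%) and was expanded in CX3CR1+ cells too, with 310 templates (0.273%). The largest in TILs A held 39 templates (0.662%) against 6 (0.0108%) in CX3CR1+ cells, and the largest in TILs B held 68 (0.549%) against 2 (0.00392%). Of the 9 largest of the TILs, 8 were found in CX3CR1+ cells of their experiment. The exception was the third of TILs A, with TCRBV17-01 and TCRBJ02-01, which held 29 templates (0.492%) and 0 of 55776 in CX3CR1+ cells. The CX3CR1+ libraries of A, B and C held 55776, 50994 and 113660 productive templates, against 5893, 12388 and 20951 in TILs. A clone was thus more readily found in CX3CR1+ cells than in TILs. The 8 of 9 and the 4 of 9 were not compared at equal depth or with shorter clones. Of the 18 rearrangements, 0 were found as nucleotide sequences in another experiment. As a CDR3 AA sequence 1 was, the second of CX3CR1+ A, with 1 template in CX3CR1+ B.

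**Figure D5:**
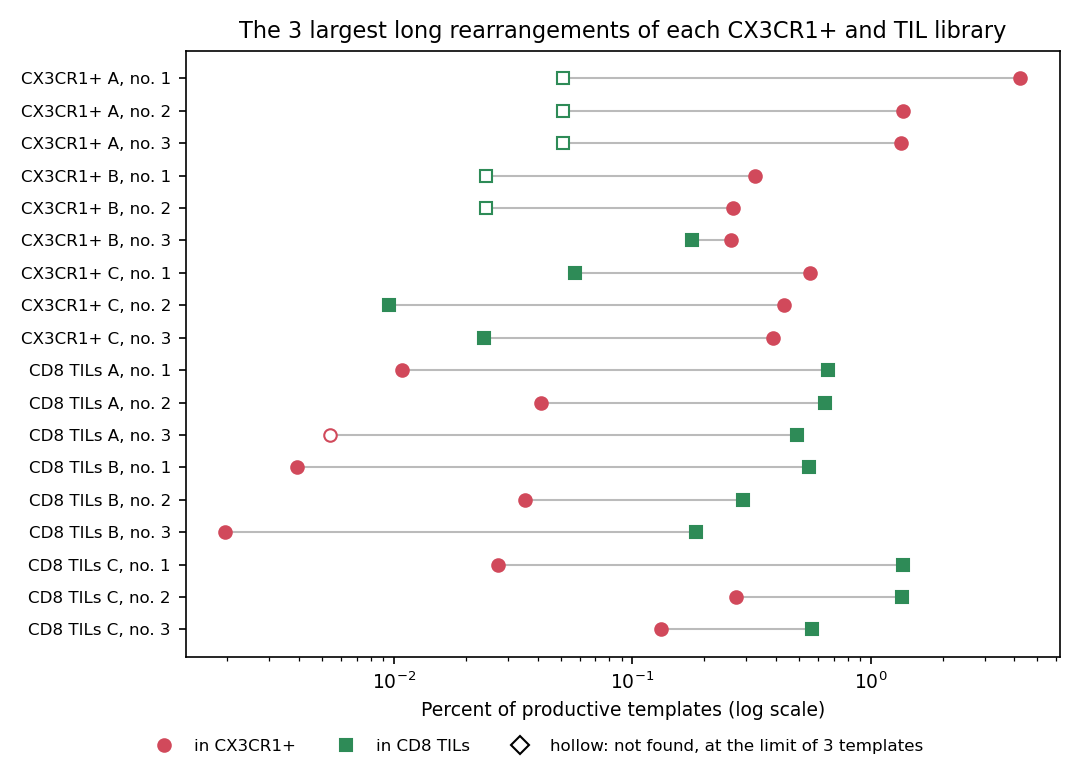
The 3 largest long rearrangements of each CX3CR1+ and TIL library (rows), with their percent of productive templates in CX3CR1+ cells (circles) and in TILs (squares) of the same experiment on a log scale, and hollow symbols at the limit of 3 templates where a rearrangement was not found. The largest of CX3CR1+ A, at 4.22%, was not found in TILs, and all 6 of experiment C, whose libraries were the deepest of their groups, were found in both.

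The long CDR3s of TILs were looked up in the splenic subsets of their experiment. Of the long TIL rearrangements, 29 of 160, 57 of 158 and 132 of 269 were found in CX3CR1+ cells of experiments A, B and C (34.4% ± 15.5, SD, n = 3), compared with 35.0% ± 13.0 of shorter ones. The difference was -0.560 ± 3.09 percentage points (exact sign-flip permutation p = 1, where 0.25 is the smallest possible). By templates, 48.5%, 70.2% and 85.9% of long TIL templates were of rearrangements found in CX3CR1+ cells, against 65.1%, 86.2% and 85.8% of shorter ones. In CD27lo CX3CR1- cells 25.6% ± 9.66 of long TIL templates were found, compared with 51.4% ± 12.3 of shorter ones, and in CD27hi CX3CR1- cells 14.4% ± 3.88 compared with 46.8% ± 15.4. These were lower for long CDR3s in 3 of 3 experiments (exact sign-flip permutation p = 0.25 for each, 0.25 being the smallest possible). By rearrangements the differences were smaller, with 6.76% ± 0.381 of long and 9.47% ± 2.96 of shorter TIL rearrangements found in CD27lo CX3CR1- cells (higher for long in 1 of 3 experiments, exact sign-flip permutation p = 0.5) and 8.33% ± 2.53 and 11.4% ± 4.10 in CD27hi CX3CR1- cells (lower in 3 of 3, p = 0.25). Rearrangements expanded in both TILs and CX3CR1+ cells numbered 130 over the 3 experiments, and 8 of them (6.15%) were long. By experiment these were 4 of 26 in A, 1 of 47 in B and 3 of 57 in C. Of all expanded rearrangements of the CX3CR1+ and TIL libraries, counted per library, 66 of 787 were long. Whether these shares differ was not tested.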

How the data were processed

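The authors prepared TCRβ libraries from genomic DNA with Adaptive Biotechnologies' ImmunoSEQ kit (survey depth), read them on an Illumina NextSeq and had them processed by the ImmunoSEQ platform. The deposited template counts are whole numbers without normalization and equal the estimated number of genomes in every row. The deposited fraction of each rearrangement, which includes non-productive ones, was not used. CDR3 length, inserted and deleted bases and segment positions were used as deposited. The stretch between the V and D positions had the length of the column n2Insertion in each of 201578 productive rows with a D position, so V-D and D-J insertions follow the positions and not the column order. The aligner is not given in the sources used here.

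Rearrangements marked productive were kept, and they held 66.0% to 75.5% of the templates of a library. Groups and experiments came from the labels, and libraries of 1 experiment carry the same code, which pairs them. Group contrasts used exact two-sided permutations within experiments as the replicate block (216 arrangements, or 27 for the 3 splenic subsets), and contrasts within libraries used exact sign flips. Tests were run in Python 3.11.15 with numpy and checked on simulated data. V and J names were matched to RefSeq genes (GRCm38.p6) by segment number, and the processing notes name mm10. In each CX3CR1+ and TIL library the 3 largest long rearrangements are named, with up to 5 long ones found in all 3 experiments, and of V and J genes the 5 largest rises and falls with the extremes. Members and lists were chosen with earlier results of these data known. CDR3 AA sequences are not printed.

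Alternatives were boundaries of 45 and 51 nucleotides, a minimum of 2 templates, AA sequences as clonotypes, 100 draws to 5893 templates, expansion from 0.05% or 0.2%, no replicate block, the experiment as unit, and leaving out each experiment. Others were added later and are marked where used.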

Additional observations from a re-analysis of the deposited data

How the results depend on the processing

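Values are differences in percentage points unless said otherwise, p-values are from the exact permutation tests, and the cause was not tested where no reason is given. Of 106 recomputed values, 69 kept their direction and side of the threshold or, for the counts of V and J genes, an equal or similar number of genes passing. Which genes passed was not compared for those counts. The long share of unique rearrangements in CX3CR1+ cells and TILs relative to CX3CR1- subsets (-0.890) was -0.137 with a boundary of 45 nucleotides, -0.162 with 51 and -0.793 at equal depth, none of them past the threshold, and reversed to 1.98 with a minimum of 2 templates. Leaving out 1 experiment gave -1.18 to -0.416 with 2 experiments, where 0.0556 is the smallest p. For CX3CR1+ cells alone (-0.398) it reversed to 2.26 with 2 templates and passed as AA sequences (-0.878). The template share in CX3CR1+ cells and TILs (-3.84) passed with a boundary of 51 (-0.918), with no replicate block (exact permutation p = 0.0346, value -3.84) and without the largest long rearrangement (-4.97). The last of these takes out long templates only, which lowers the long share most in libraries with a large long clone. This difference in template share was -0.464 with 45 and -0.400 with 2 templates, and ran from -5.80 to -2.15 on leaving out 1 experiment. That of CX3CR1+ cells (-2.31) passed with 51 (-1.15) and reversed to 1.28 with 2 templates, and ran from -5.52 to -0.149 on leaving out 1 experiment.

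The group difference in N nucleotides (0.0220 nucleotides, not past the threshold) reversed to -0.00560 with 45, -0.0754 with 51, -0.0885 with 2 templates and -0.0213 as AA sequences, and ran from -0.0248 to 0.0822 on leaving out 1 experiment. The long share of expanded minus other rearrangements (-3.73) no longer passed with 45 (-2.29), 51 (-0.309), 2 templates (-1.33) or equal depth (-2.89), and ran from -5.43 to -2.44 on leaving out 1 experiment, where 4 libraries cannot reach the threshold. Out-of-frame minus productive long share (-1.25) reversed to 0.0119 with 51, to 16.6 with 46 for out-of-frame and to 0.921 by templates, and was -0.0419 with 2 templates. Net charge (-0.0163) reversed to 0.0307 with 45 and 0.0702 with 2 templates, both past the threshold. With the experiment as replicate block, 3 values cannot pass: sharing stayed at -25.4, out-of-frame at -1.25, glycine at 2.89, and 0 of 33 genes passed against 29. The genes of long CDR3s differing between groups numbered 0 with no replicate block. With 2 templates they numbered 7 against 0, in a test where fewer than 7 could not pass. The shallowest library, TILs A with 5893 productive templates and 160 long rearrangements, limits its shares the most. Equal depth was not run for the out-of-frame shares.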
